A study of Homo sapiens with 9 samples.

Results

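The BCL2 family of apoptosis regulators was followed after knockdown of *PHF6*, a recurrently mutated gene of T cell acute lymphoblastic leukemia (T-ALL). The 10 genes described were *BCL2*, *BCL2L1* and *MCL1* (anti-apoptotic), *BCL2L11*, *BBC3*, *PMAIP1*, *BID* and *BAD* (BH3-only), and *BAX* and *BAK1* (effectors). They were chosen by name, and each array probe whose transcript identifier maps to one of these symbols was taken, which gave 15 probes for 10 of the 19722 genes named on the array. ALL-SIL is an established human T-ALL cell line. Its cells were electroporated with a negative control siRNA or with one of the *PHF6* siRNAs that the labels call siRNA1 and siRNA2, bought as Silencer Select in one case and as ON-TARGETplus SMARTpool in the other. Which of these products is siRNA1 is not stated in the sources used here. The time of collection is 96 h in most labels and in the study's methods, whereas a free-text description gives 72 h. Each group had 3 samples, which carry the replicate numbers 1 to 3 and are described as independent biological replicates, with 1 one-colour array per sample. Values are on a generalized log2 scale after normalization with the VSN model, and a difference of 1 on this scale is close to a 2-fold change for bright probes. Probes well above background on 3 or more of the 9 arrays counted as measured, which held for 33625 of 57176 probes and for all 15 probes of the family.

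Proteins of the BCL2 family decide whether the outer mitochondrial membrane is permeabilized, the step that releases cytochrome c and starts the caspase cascade. Anti-apoptotic members hold the effectors BAX and BAK in check, and BH3-only proteins, which report cellular stress, either neutralize the anti-apoptotic members or activate the effectors. T-ALL cells are known to depend on BCL2 or on BCL-XL according to their maturation stage, which has made the family a drug target in this disease.

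*PHF6*, the knockdown target, was measured by 1 probe (A_23_P171385). Its value was 11.07, 11.17 and 10.86 in control replicates 1 to 3, then 9.39, 9.69 and 9.12 with siRNA1 and 9.20, 9.28 and 9.14 with siRNA2. All 6 siRNA samples were below all 3 control samples, in keeping with the labels. With both siRNAs combined, *PHF6* fell by 1.73 on the log2 scale (limma adjusted p = 0.00249, standard error 0.14), with -1.63 for siRNA1 and -1.83 for siRNA2.

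Against this knockdown, limma called 0 of the 15 family probes at an adjusted p under 0.05 with both siRNAs together, where 3 of all measured probes (0.00892%) were called. The count was also 0 of 15 with siRNA1 (background 0.00892%), with siRNA2 (background 0.0119%) and between the siRNAs (background 0%). At an unadjusted p under 0.05 there was 1 family probe with both siRNAs (background 7.43%) and 1 with siRNA1 (background 5.95%), a probe of *BAX* in each case. There were 0 such probes with siRNA2 (background 5.88%) and 0 between the siRNAs (background 2.52%). In none of the 15 probes did the 6 siRNA arrays all lie on one side of the 3 control arrays, which was the case for 3.93% of all measured probes.

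Samples that share a replicate number departed from their group means in the same direction, so each comparison was also fitted with the replicate number as a block. With this block 915 probes (2.72%) were called for both siRNAs together and again 0 of the 15 family probes, although 4 had an unadjusted p under 0.05 (background 21.8%). The adjusted p of the 15 probes from limma then ran from 0.0652 to 0.933. Confidence intervals of single genes below are from the fit without the block unless it is named. With siRNA1 the blocked fit called 1 of 15 family probes, that of *BBC3*, which was lower (background 0.940%), and 3 had an unadjusted p under 0.05 (background 19.2%). It called 0 of 15 with siRNA2 (background 1.65%), where 2 had an unadjusted p under 0.05 (background 19.5%). Between the siRNAs it called 0 of 15 (background 0.0387%), with 4 at an unadjusted p under 0.05 (background 9.66%). The median log2 fold change of the 15 probes was -0.02 for both siRNAs together, -0.07 for siRNA1 and -0.01 for siRNA2, and that of all measured probes was -0.00, -0.01 and 0.01. Of the 15 probes 7 had a log2 fold change above 0 and 8 below 0 for both siRNAs together. Counts of siRNA samples above or below their own control are given below as descriptions only. How common such counts were over all measured probes was not computed.

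**Figure D1:**
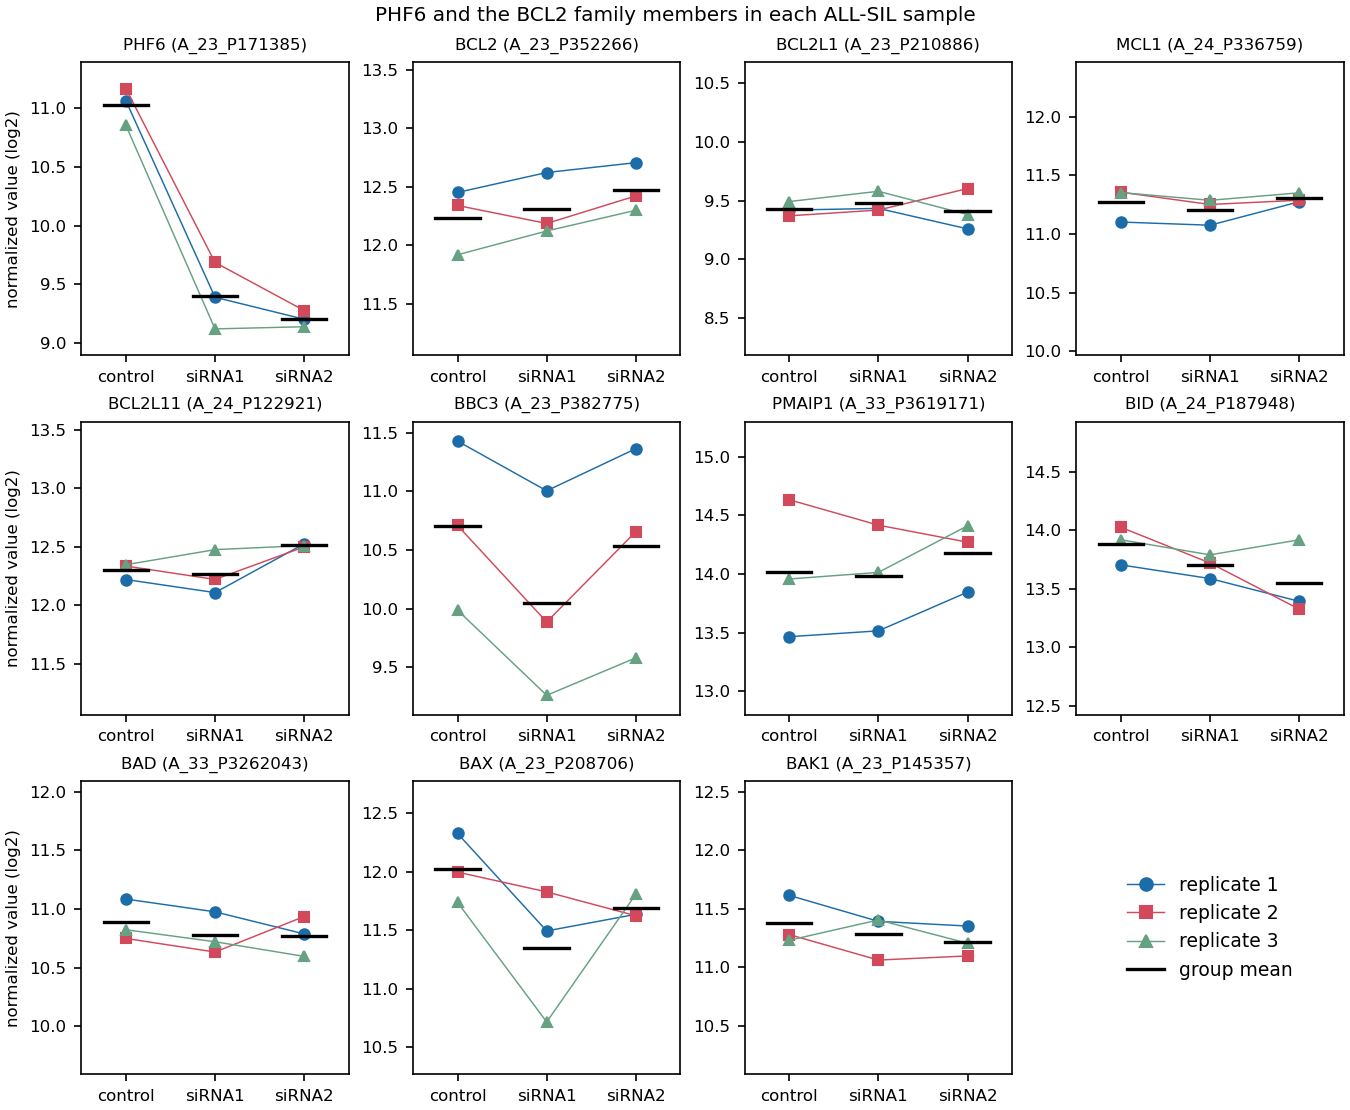
Normalized log2 value of *PHF6* and of the brightest probe of each BCL2 family gene (vertical axes, each spanning 2.5 log2 units) in control, siRNA1 and siRNA2 samples; symbols joined by a line share a replicate number and black bars are group means (n = 3). *PHF6* fell in all 6 siRNA samples, whereas the lines of *BBC3* and *PMAIP1* are farther apart than their group means.

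Among the anti-apoptotic members, *BCL2*, the founding gene of the family, had 2 probes. The brighter one (A_23_P352266) had values of 12.45, 12.34 and 11.92 in control replicates 1 to 3, of 12.62, 12.19 and 12.12 with siRNA1 and of 12.71, 12.42 and 12.30 with siRNA2. The groups overlapped, and in each group replicate 1 was the highest and replicate 3 the lowest. The log2 fold change of both siRNAs was 0.16 (95% confidence interval -0.22 to 0.53, adjusted p = 0.872 from limma, and 0.351 with the block). In 5 of 6 siRNA samples the value was above that of its own control, and without control replicate 3 the fold change was -0.00302 in the fit without the block and 0.09 in the fit with it. The other *BCL2* probe (A_33_P3355185), matched to another transcript, gave 0.11 (adjusted p = 0.922 from limma).

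*BCL2L1* encodes BCL-XL, which holds BAX and BAK in check in the same way. Its probe (A_23_P210886) was at 9.42, 9.37 and 9.49 in control samples, at 9.43, 9.42 and 9.58 with siRNA1 and at 9.26, 9.60 and 9.38 with siRNA2. All 9 values lay within 0.34 log2 units. Its log2 fold change was 0.02, with a confidence interval of -0.24 to 0.28 (adjusted p = 0.985 from limma, and 0.932 with the block).

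*MCL1* encodes a short-lived anti-apoptotic protein that is controlled mainly by its turnover, which RNA does not show. Its transcript varied least of the family over the 9 arrays, within 0.28 log2 units. It was 11.10, 11.36 and 11.35 in control samples, 11.07, 11.25 and 11.29 with siRNA1 and 11.27, 11.29 and 11.35 with siRNA2. For both siRNAs the log2 fold change was -0.02 with a confidence interval of -0.27 to 0.24 (adjusted p = 0.986 from limma, and 0.933 with the block). The signs of the *BCL2L1* and *MCL1* values are without weight, since each turned under 1 of the normalizations, *BCL2L1* to -0.04 with VSN on the processed signal and *MCL1* to 0.03 with normexp background correction and quantile normalization.

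Of the BH3-only members, *BBC3*, which encodes PUMA and is a classical target of p53, varied most between samples. Its single probe (A_23_P382775) was 11.43, 10.71 and 9.99 in control replicates 1 to 3, then 11.00, 9.89 and 9.26 with siRNA1 and 11.36, 10.66 and 9.58 with siRNA2. In each group replicate 1 was the highest and replicate 3 the lowest, so that the groups overlapped broadly, and the 9 values spanned 2.17 log2 units. Within a replicate number, however, each siRNA sample was below its own control. With siRNA1 the difference from the control of the same number was -0.42, -0.82 and -0.73, and with siRNA2 it was -0.06, -0.05 and -0.41. The log2 fold change with siRNA1 was -0.66 (standard error 0.53, confidence interval -1.83 to 0.51, adjusted p = 0.897 from limma without the block). When the replicate number was the block, this difference had a confidence interval of -0.93 to -0.39 and an adjusted p of 0.0428. For both siRNAs together the value was -0.42 (adjusted p = 0.877 from limma, and 0.0652 with the block), and for siRNA2 it was -0.17 (adjusted p = 0.467 with the block). The difference between the siRNAs, 0.48, did not pass the test either (adjusted p = 0.313 from limma with the block), so a call with siRNA1 alone does not show that the siRNAs differed. The arrays came from 2 slides, the first with replicates 1 and 2 of each group and the other with replicate 3. The siRNA1 difference was -0.62 within the first slide and -0.73 within the other, with an adjusted p of 0.406 from limma with the slide as a block. Without the block, leaving out 1 array moved the siRNA1 difference between -1.14 and -0.26 and that of both siRNAs between -0.78 and -0.06. The blocked call was near the threshold. It was lost when replicate number 1, 2 or 3 was left out (adjusted p 0.127, 0.243 and 0.116 from limma), and it was lost or kept according to the normalization, from 0.0324 to 0.0893. In the fits without a replicate number the siRNA1 difference ran from -0.78 to -0.58. These fits have fewer arrays and called 9 to 135 of all measured probes, against 316 with all arrays, so a lost call there says little about the difference.

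*PMAIP1*, which encodes NOXA, a BH3-only protein that mainly binds MCL1, also followed the replicate numbers. The values of its probe (A_33_P3619171) were 13.46, 14.63 and 13.96 in control samples, 13.51, 14.42 and 14.01 with siRNA1 and 13.85, 14.27 and 14.41 with siRNA2. Replicate 1 was the lowest in every group, and the log2 fold change of 0.06 (confidence interval -0.52 to 0.65, adjusted p = 0.974 from limma, and 0.824 with the block) was small against this spread. In the fit without the block it was -0.22 without control replicate 1 and 0.37 without control replicate 2, and with the block these were -0.02 and 0.23.

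*BCL2L11* encodes BIM, the BH3-only protein through which glucocorticoids and loss of cytokines kill lymphoid cells. Its brightest probe (A_24_P122921) was at 12.22, 12.33 and 12.35 in control samples, at 12.11, 12.22 and 12.47 with siRNA1 and at 12.52, 12.50 and 12.51 with siRNA2. The 3 siRNA2 samples were above the other 6 samples, the lowest at 12.50 and the highest of the others at 12.47. The share of all measured probes with such an order was not computed. With siRNA2 the log2 fold change over control was 0.21 (adjusted p = 0.882 from limma) and over siRNA1 0.24 (adjusted p = 1.00 from limma). The probes of this gene differed from each other here. The second (A_33_P3251932) had 0.33 with siRNA1 and -0.07 with siRNA2, and the third (A_33_P3398526) had 0.11 and 0.10. None of these values passed the test, and for both siRNAs together the probes gave 0.09, 0.13 and 0.10. The brightest probe had an adjusted p of 0.609 there from limma with the block.

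*BID*, whose product is cleaved by caspase-8 and links death receptors to the mitochondrion, had 2 probes. The brighter one (A_24_P187948) was 13.70, 14.03 and 13.92 in control samples, 13.59, 13.72 and 13.79 with siRNA1 and 13.39, 13.33 and 13.92 with siRNA2. On both probes all 6 siRNA samples were below the control of the same number, with differences as small as -0.000249 and -0.01 in siRNA2 replicate 3. How often this held over all measured probes was not computed. Log2 fold changes were -0.26 and -0.21 (adjusted p = 0.747 and 0.728 from limma). They were -0.36 and -0.30 within the first slide and -0.06 and -0.04 within the other. Without the block the confidence intervals, -0.60 to 0.08 and -0.47 to 0.04, include 0. With it they were -0.51 to -0.00546 and -0.43 to -0.000916 and did not include 0, while the limma adjusted p of 0.221 and 0.228 did not pass the threshold.

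*BAD*, a BH3-only gene whose protein is silenced by growth factor signalling through phosphorylation, had a log2 fold change of -0.11 (confidence interval -0.41 to 0.19, adjusted p = 0.893 from limma, and 0.574 with the block). The fold change without control replicate 1 was -0.01 in the fit without the block and -0.06 in the fit with it. Values of *BAD* lay between 10.75 and 11.08 in control samples, between 10.63 and 10.98 with siRNA1 and between 10.60 and 10.94 with siRNA2, so that the groups covered nearly the same range. Within replicate numbers, however, 5 of 6 siRNA samples were below their own control. These differences were -0.11, -0.12 and -0.10 with siRNA1 and -0.30, 0.19 and -0.23 with siRNA2.

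Of the effectors, *BAX* encodes a protein that moves from the cytosol to the mitochondrion, and it had the lowest log2 fold change of the family for both siRNAs together and for siRNA1. Its brighter probe (A_23_P208706) was 12.33, 12.00 and 11.74 in control samples, 11.49, 11.83 and 10.72 with siRNA1 and 11.63, 11.62 and 11.81 with siRNA2. The lowest value was that of siRNA1 replicate 3, and siRNA2 replicate 3 was above its own control. The log2 fold change was -0.50 for both siRNAs (confidence interval -0.995 to -0.01, unadjusted p = 0.0464 and adjusted p = 0.667 from limma). With the block its adjusted p from limma was 0.149. For siRNA1 the log2 fold change was -0.67 (unadjusted p = 0.0245, adjusted p = 0.825 from limma). Neither value was thus past the threshold over all probes. Within the first slide the value for both siRNAs was -0.52 and within the other -0.48, the latter made up of -1.02 with siRNA1 and 0.07 with siRNA2. For siRNA1 it was -0.50 within the first slide, which does not hold replicate 3. Leaving out siRNA1 replicate 3 gave -0.35 for both siRNAs in the fit without the block and -0.37 in the fit with it. The other *BAX* probe (A_33_P3341144), matched to a different transcript, was -0.39 with siRNA1 and -0.01 with siRNA2 (adjusted p = 0.852 and 0.997 from limma).

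*BAK1*, the effector that resides in the mitochondrial outer membrane, had a log2 fold change of -0.12 (confidence interval -0.43 to 0.18, adjusted p = 0.880 from limma). Its values were 11.61, 11.28 and 11.23 in control samples, 11.39, 11.06 and 11.40 with siRNA1 and 11.35, 11.10 and 11.21 with siRNA2, and 5 of 6 siRNA samples were below their own control. The fold change without control replicate 1 was -0.00308 in the fit without the block and -0.06 in the fit with it.

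**Figure D2:**
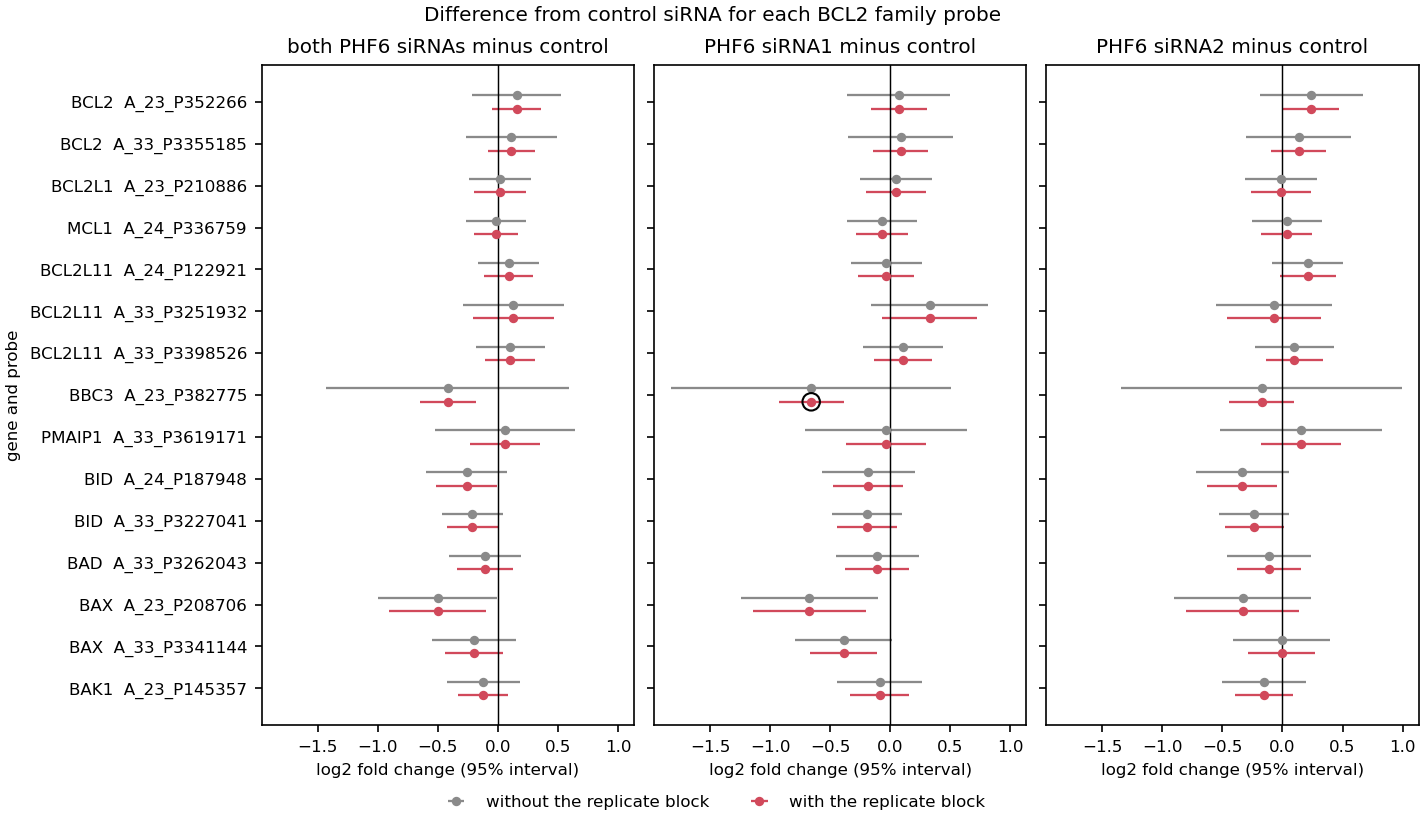
Log2 fold change from control siRNA (horizontal axis) of the 15 BCL2 family probes (vertical axis) for both siRNAs, siRNA1 and siRNA2; points are estimates, lines 95% confidence intervals, gray without and red with the replicate number as a block, and a circle marks an adjusted p under 0.05. The block narrows the interval of *BBC3* from -1.83 to 0.51 down to -0.93 to -0.39 with siRNA1, the single circled value.

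To describe where the spread of each gene lay, the sum of squares over the 9 arrays was divided between the siRNA group, the replicate number and the rest, which hold 25%, 25% and 50% of the degrees of freedom. For the 15 family probes the median share of the siRNA group was 17.7% and that of the replicate number 43.5%. For all measured probes these medians were 19.9% and 50.1%. Both medians of the family were thus below those of the array, a difference that was not tested, and the members differed widely among themselves. The replicate number held 83.8% of the sum of squares for *BBC3*, 79.5% for *PMAIP1*, and 72.1% and 86.5% for the probes of *BCL2*. The siRNA group held 56.4% for the brightest *BCL2L11* probe, 44.6% and 47.3% for the probes of *BAX* and 37.4% and 56.5% for those of *BID*. The rest was the largest part for *BCL2L1* with 68.3%, for *BAD* with 44.8% and for the second *BCL2L11* probe with 40.6%. What the samples of one replicate number shared beyond the number and the slide is not given in the labels, so its part in these differences was not tested.

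**Figure D3:**
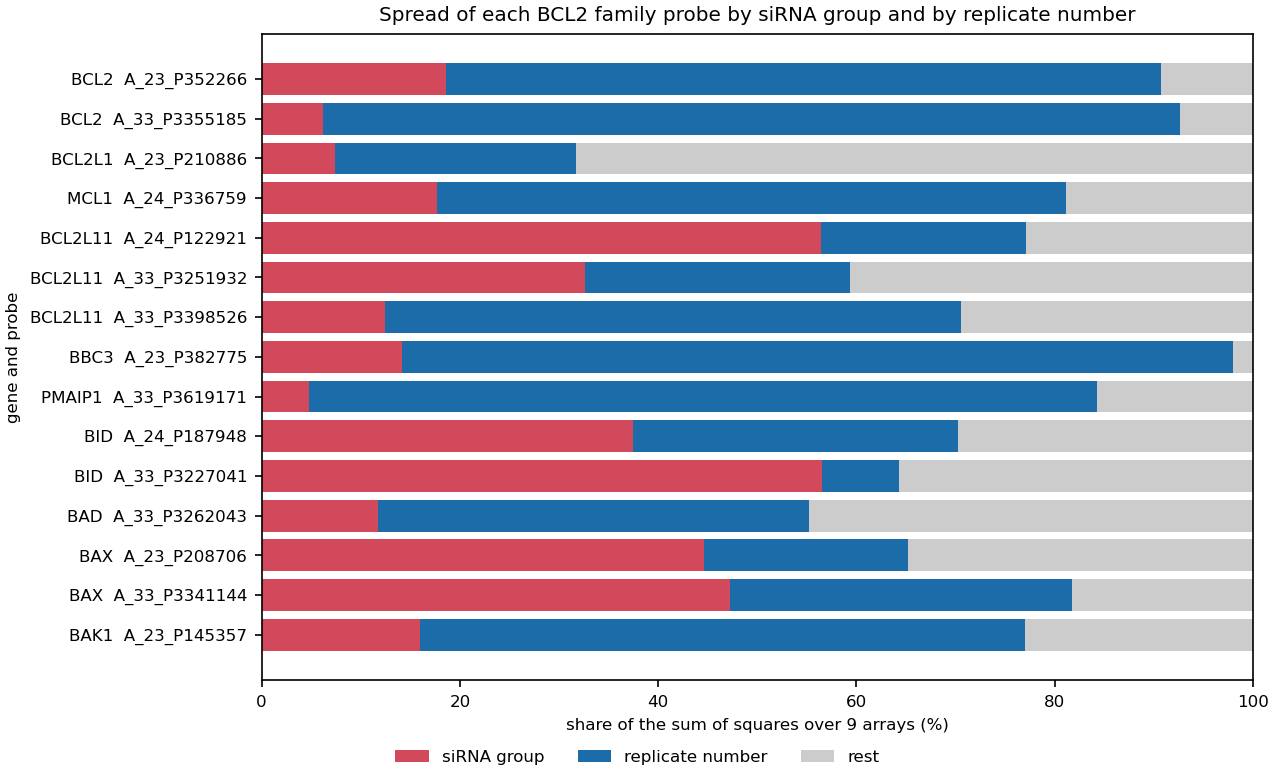
Share of the sum of squares over the 9 arrays (horizontal axis, %) that lay between siRNA groups (red), between replicate numbers (blue) and in the rest (gray) for each BCL2 family probe (vertical axis). Blue is widest for *BCL2*, *BBC3* and *PMAIP1*, and red for the first *BCL2L11* probe, *BAX* and *BID*, where it reaches 56.5%.

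The gene whose profile over the 9 arrays was most like that of each member was looked up among 14698 other genes, as a description in which a high value is picked from many. For *BBC3* it was *PLXND1* (Pearson r 0.996), which shared its order of replicate numbers, and for *BCL2* it was *MMD* (0.991). The closest genes of the others were *HP1BP3* for *PMAIP1* (0.980), *PRPF18* for *MCL1* (0.976), *DNAJC7* for *BAX* (0.975), *LRRC61* for *BAD* (0.972), *OR52W1* for *BID* (0.964), *SLC16A3* for *BAK1* (0.962), *ZNF674-AS1* for *BCL2L11* (0.947) and *RAB12* for *BCL2L1* (0.936). The 9 arrays share the replicate numbers described above, so these values are not measures of regulation. In the RNA of whole cultures, a change in every cell and a change in the share of cells that hold the transcript cannot be told apart either.

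The genes around the family were read from lists of 80 genes, of which 79 had a probe and 75 were measured, each by its brightest probe. Without the block limma called 0 of the 75 in any comparison with control, where 1 of the 14716 measured genes was called in each. With the block it called 2 for both siRNAs together, where 2.34% of the 14716 measured genes were called. The median log2 fold change of the 75 genes was -0.05, and that of all measured genes -0.04. The first called gene was *BCL2L10*, an anti-apoptotic relative outside the 10 members. Its probe (A_23_P163209) was dim but well above background on all 9 arrays, at 5.55, 5.90 and 5.11 in control samples, 6.15, 6.34 and 5.60 with siRNA1 and 6.48, 6.37 and 5.80 with siRNA2. Each siRNA sample was above its own control. For both siRNAs the difference was 0.60 (limma adjusted p = 0.646, and 0.0175 with the block), with 0.61 within the first slide and 0.59 within the other. For siRNA2 it was 0.70 (limma adjusted p = 0.824, and 0.0248 with the block), and for siRNA1 0.51 (0.857 and 0.0618). The difference between the siRNAs, 0.19, did not pass the test (limma adjusted p = 0.597 with the block). Leaving out replicate number 1, 2 or 3 lost the call for both siRNAs (limma adjusted p 0.180, 0.102 and 0.0589) and for siRNA2 (0.298, 0.0906 and 0.0740). The differences there ran from 0.52 to 0.68 and from 0.58 to 0.81. With the slide as the block the limma adjusted p was 0.0820 and 0.110. With the replicate block both calls were also lost on the processed signal (0.0736 and 0.0999) and with the 75th percentile (0.0510 and 0.0726). Among single arrays, the call for both siRNAs was lost without control replicate 1 (0.134), control replicate 2 (0.0672) or siRNA1 replicate 2 (0.0530). That for siRNA2 was lost without control replicate 1 (0.133), control replicate 2 (0.0631), siRNA2 replicate 1 (0.156) or siRNA2 replicate 3 (0.0585). With normexp and quantile normalization, which shrinks differences of dim probes, the blocked value was 0.30 and the call was kept (limma adjusted p = 0.0389). The second was *STAT5A*, a transcription factor of cytokine signalling that controls genes of the family, at -0.43 (limma adjusted p = 0.646, and 0.0353 with the block). The study also names *STAT5A* as significantly lower after *PHF6* knockdown in ALL-SIL cells, whereas the fit without the block did not call it here. All 6 siRNA samples were below the control of the same number, with a difference of -0.41 within the first slide and -0.47 within the other. This call was lost when replicate number 1, 2 or 3 was left out (limma adjusted p 0.197, 0.138 and 0.124), when any single array was left out (0.0512 to 0.136) and with the slide as the block (0.173). Without a replicate number the difference ran from -0.48 to -0.39. The *STAT5A* call was also lost with the block on the processed signal (limma adjusted p = 0.0752) or the 75th percentile (0.0664). The call was kept with the block on the background-subtracted median (limma adjusted p = 0.0407), the deposited table (0.0334) and normexp and quantile normalization (0.0175).

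Of the other BCL2 family genes 13 of 14 were measured, and the lowest was the BH3-only gene *BIK* at -0.43 (limma adjusted p = 0.0518 with the block, below its own control in 6 of 6 siRNA samples). For both siRNAs 15 of 16 genes of the apoptosome and caspases were below 0, as were 8684 of all 14716 genes, and their median was -0.14, from -0.29 for *PARP1*, a caspase substrate, to 0.10 for *DFFB*, the nuclease that cuts DNA in dying cells. With siRNA2 alone it was 12 of 16 with a median of -0.04, where the median of all genes was -0.02. None of them passed the test with or without the block. Values of the inhibitor of apoptosis genes ran from -0.00 for *BIRC5* (survivin) to 0.49 for *BIRC7*, which was well above background on 7 of 9 arrays, and none of the 7 was called. In the death receptor pathway, 7 of 10 genes were measured, with values from -0.22 for *TRADD* to 0.09 for *CFLAR*, an inhibitor of caspase-8. *FASLG*, *TNFRSF10A* and *TNFRSF10B*, and *BCL2L14* of the family list, were not well above background on any of the 9 arrays. Genes of the mitochondrial outer membrane and of mitochondrial dynamics ranged from -0.26 for *VDAC1*, a channel of that membrane, to 0.16 for *MFN1*, which fuses mitochondria. Of the 12 transcription factors, *FOXO1*, whose family switches on BIM, was the highest at 0.25 (adjusted p = 0.726 from limma). Genes that act on the family at the protein level ranged from -0.21 for *YWHAE* to 0.16 for *USP9X*, which stabilizes MCL1, with none of 12 called.

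**Figure D4:**
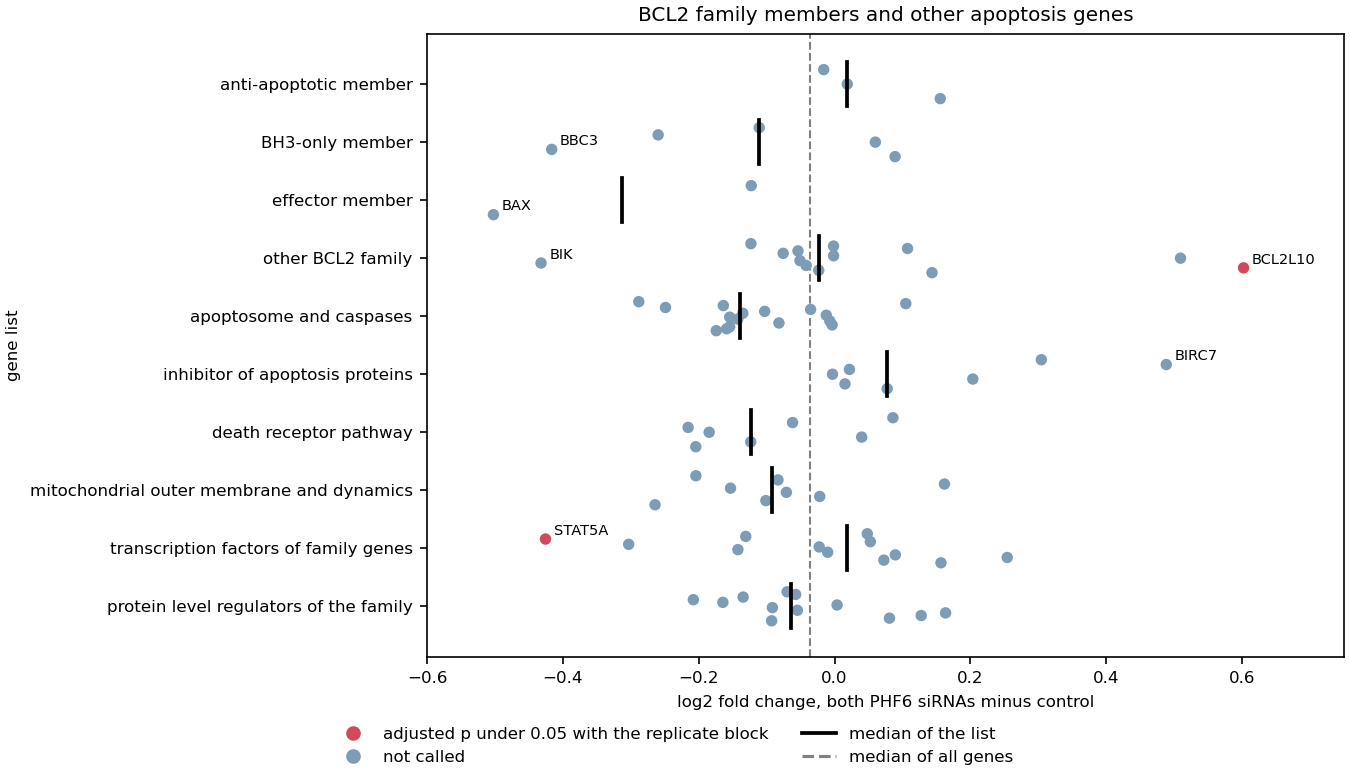
Log2 fold change of both *PHF6* siRNAs from control (horizontal axis) for the BCL2 family members by role and for 7 lists of other apoptosis genes (vertical axis); each point is a gene by its brightest probe, red where the adjusted p with the replicate block was under 0.05, black bars are list medians and the dashed line is the median of all genes. *BCL2L10* at 0.60 and *STAT5A* at -0.43 are the red points.

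The T-lineage identity of the cells was visible in the same samples, since all 12 T-lineage markers examined, among them *CD3E*, *LCK*, *RAG1* and the T-ALL oncogene *TLX1*, were well above background on all 9 arrays. Without the block limma called 0 of the 12 in any comparison with control, where 1 of the 14716 measured genes was called in each. With it 2 of 12 passed the threshold for both siRNAs, against 2.34% of all measured genes, *CD7* at -0.76 (limma adjusted p = 0.0125) and *PTCRA* at -0.73 (limma adjusted p = 0.00833). The study had already named *PTCRA* as significantly lower after *PHF6* knockdown in ALL-SIL cells. The list was chosen with such results known, so this count is no test of the list. The calls of *CD7* and *PTCRA* were not examined with fewer arrays, with the slide as the block or with other normalizations. The highest of the list was *CD1A* at 0.71 (limma adjusted p = 0.0733 with the block), and 3 of the 12 were above 0. The NK markers *NCAM1* and *KLRD1* were not measured. Some markers of other lineages, among them *CD79A* of B cells and *CD14* of myeloid cells, were well above background on all 9 arrays as well. These 2 were not called with or without the block, and their part in the values of the BCL2 family was not tested.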

How the data were processed

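The authors deposited the spot intensity of 9 Agilent arrays, read with Feature Extraction (version 9.1 per the labels, 10.5.1.1 per the file headers) and not normalized between arrays. They also deposited a table of log2 values normalized with VSN, which was used as an alternative. Outlier spots were left out, repeated spots averaged, and the VSN model (7 iterations, trimming quantile 0.9) was fitted to the median intensity by code written here, since the package was not installed. Transcript identifiers were matched to RefSeq names (GRCh38.p14, names only), which named 25729 of 57176 probes. Groups were compared with limma 3.58.1 in R 4.3.3, without a block, since the study's methods name limma and state none, two-sided, with Benjamini-Hochberg adjustment over 33625 probes.

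Deviations from the group means correlated at 0.311 to 0.745 for the 9 same-numbered sample pairs and at -0.569 to 0.135 for the 18 others. The labels' numbers were therefore taken to pair the samples. Members and lists were chosen with earlier results of these data known. A gene was represented by its brightest measured probe. Of the lists, genes called in a comparison with or without the block were named, and otherwise the lowest and the highest of each list. Alternatives were other intensities and normalizations, filters, outlier spots kept, blocks, a trended and robust prior, fewer arrays, and probe means per gene.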

Additional observations from a re-analysis of the deposited data

How the results depend on the processing

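Without a block, no alternative called a family probe in any of the 4 comparisons. In the fit with the replicate block, the count with siRNA1 was 1, the *BBC3* probe, and it was also 1 when the block was combined with normexp and quantile normalization or with the deposited table, combinations chosen after seeing the data. It was 0 with the block and the other 3 normalizations, 0 when a replicate number was left out, and 0 to 1 when single arrays were left out, also chosen after seeing the data. There the call was lost in 7 of 9 cases (adjusted p 0.0559 to 0.204 from limma) and kept without siRNA2 replicate 2 or 3 (0.0498 and 0.0492), arrays outside this comparison. For both siRNAs the count was 0 to 1 without single arrays, with *BAX* called without siRNA2 replicate 3 (adjusted p = 0.0496 from limma). The block changed no other call of a member.

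Over all probes, the replicate block raised the counts for both siRNAs, siRNA1, siRNA2 and siRNA2 against siRNA1 from 3, 3, 4 and 0 to 915, 316, 554 and 13. With the block, they were 735, 207, 389 and 10 for the background-subtracted median, 154, 27, 44 and 0 for the processed signal, 272, 38, 53 and 0 for the 75th percentile, 1271, 483, 895 and 9 for normexp and quantile normalization, and 868, 268, 484 and 10 for the deposited table. The slide as a block gave 24, 11, 11 and 6. Without a block, the counts were 2, 0, 0 and 0 for the processed signal, 5, 6, 2 and 0 for the 75th percentile, 5, 3, 6 and 0 for normexp and quantile normalization, 3, 2, 4 and 0 for the deposited table, 3, 6, 4 and 4 with a filter on all 9 arrays, and 0 for siRNA1 when the siRNA2 arrays were not used. Leaving out single arrays gave 2 to 3, 0 to 7, 0 to 4 and 0 to 11 without the block and 44 to 1170, 17 to 637, 20 to 780 and 3 to 32 with it, and leaving out a replicate number with the block gave 5 to 665, 9 to 135, 3 to 345 and 0 to 25. Where this leaves a group with 2 samples, these are assumed to vary like the others. The cause of these differences was not tested.

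*PHF6* was -1.83 (adjusted p = 0.0651 from limma) with VSN on the processed signal and passed the threshold in the other 37 alternatives. *BCL2L11*, *BBC3*, *BID*, *BAD*, *BAX* and *BAK1* kept their sign in all alternatives, but not their size, with 0.00165 to 0.16 for *BCL2L11*, -0.78 to -0.06 for *BBC3*, -0.36 to -0.14 for *BID*, -0.19 to -0.01 for *BAD*, -0.65 to -0.35 for *BAX* and -0.22 to -0.00308 for *BAK1*. *BCL2L1* was -0.0352 with the processed signal, with and without the block, and *MCL1* 0.0332 with normexp and quantile normalization, again in both fits. When arrays or replicate numbers were left out, *BCL2* ranged from -0.00302 to 0.26, *BCL2L1* from -0.0428 to 0.0646, *MCL1* from -0.10 to 0.0270 and *PMAIP1* from -0.22 to 0.37. The signal over background limits the dim probes, here *BCL2L10* and the second *BAX* probe.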
